A study of Mus musculus with 8 samples.

Results

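Cells depleted of Klf4 and treated with TGFβ were set against untreated control cells in the mouse line NMuMG, on 4 of the 8 gene expression arrays of a study of Klf4 in the epithelial to mesenchymal transition (EMT). The first group, called siKlf4/TGFβ here, was transfected with a pool of 2 siRNAs against Klf4 and received 2 ng/ml TGFβ for 2 days. The group it was compared with, called siControl here, received a control siRNA and no TGFβ. Each group had 2 arrays. The remaining 4 arrays carry the labels siKlf4 without TGFβ and siControl with TGFβ, 2 of each. They entered the estimate of the spread between replicates and the choice of probe set for a gene, and not the means compared. All 4 groups share the cell line, an untransformed line of mammary gland epithelium used as a subclone, and the lipid transfection. The comparison covers all 19937 genes that were measured by a probe set with exactly 1 gene symbol, which are all the genes tested in the series. Because the siRNA and TGFβ changed together, the parts of each in a difference cannot be told apart from these 2 groups.

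Klf4 is a zinc finger transcription factor of differentiated epithelia such as skin and gut. TGFβ binds a pair of receptor kinases that phosphorylate Smad2 and Smad3, which join Smad4 and act on genes in the nucleus. In NMuMG cells TGFβ arrests the cell cycle and starts EMT, in which transcription factors of the Snail, Zeb and Twist families repress cell junction genes, and the cells take up stress fibres, focal adhesions and a fibronectin-rich matrix.

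Expression values are log2 values made with RMA (Robust Multi-Array normalization, which sets all arrays to a common distribution), so every difference is relative to the other genes of the array. A difference of 1 on this scale is a factor of 2. Which values lie above background is not known, so where a group lies near or below the array medians, a difference or fold describes the measured values and may understate the change. Groups were compared with limma, and a gene was called higher or lower at a Benjamini-Hochberg adjusted p under 0.05 over the 19937 genes. Nothing in the sources states that replicate arrays stem from separate transfections. A p-value here therefore covers no more than the spread between arrays, and that spread may be technical. Array medians were close, from 4.902 to 5.002, and 0 pairs of arrays held identical values. Across genes, r between replicates was 0.992 or higher.

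The targeted gene was checked first. Klf4 had log2 values of 7.43 and 7.24 in the siKlf4/TGFβ arrays, against 8.60 and 8.43 in the siControl arrays. Both siKlf4/TGFβ arrays lay below both siControl arrays, which is 2.26-fold lower on average (log2 difference −1.18 with a standard error of 0.0987, limma adjusted p = 1.70e-05). The arrays in between had 8.03 and 7.91 for the label siKlf4 without TGFβ and 7.46 and 7.46 for the label siControl with TGFβ. The values of TGFβ-induced genes went against the labels of these middle groups. Il11, a cytokine gene induced by TGFβ in many cells, stood at 8.75 and 8.69 in the siKlf4/TGFβ arrays, at 8.82 and 9.20 in the arrays labelled as untreated siKlf4, at 4.65 and 4.54 in those labelled as treated siControl, and at 4.45 and 5.03 in the siControl arrays. Over the 23 measured genes of a list of TGFβ-induced genes, the median of the group means was 9.01 in siKlf4/TGFβ, 9.17 and 8.06 under these 2 labels in the same order, and 8.22 in siControl. TGFβ-induced genes were thus high in the arrays labelled as untreated and not in those labelled as treated. Between the siKlf4/TGFβ and siControl arrays, Klf4 and the TGFβ-induced genes differed in the directions that their labels give. Because TGFβ changed together with the siRNA, the Klf4 decrease cannot be credited to the siRNA alone.

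**Figure D1:**
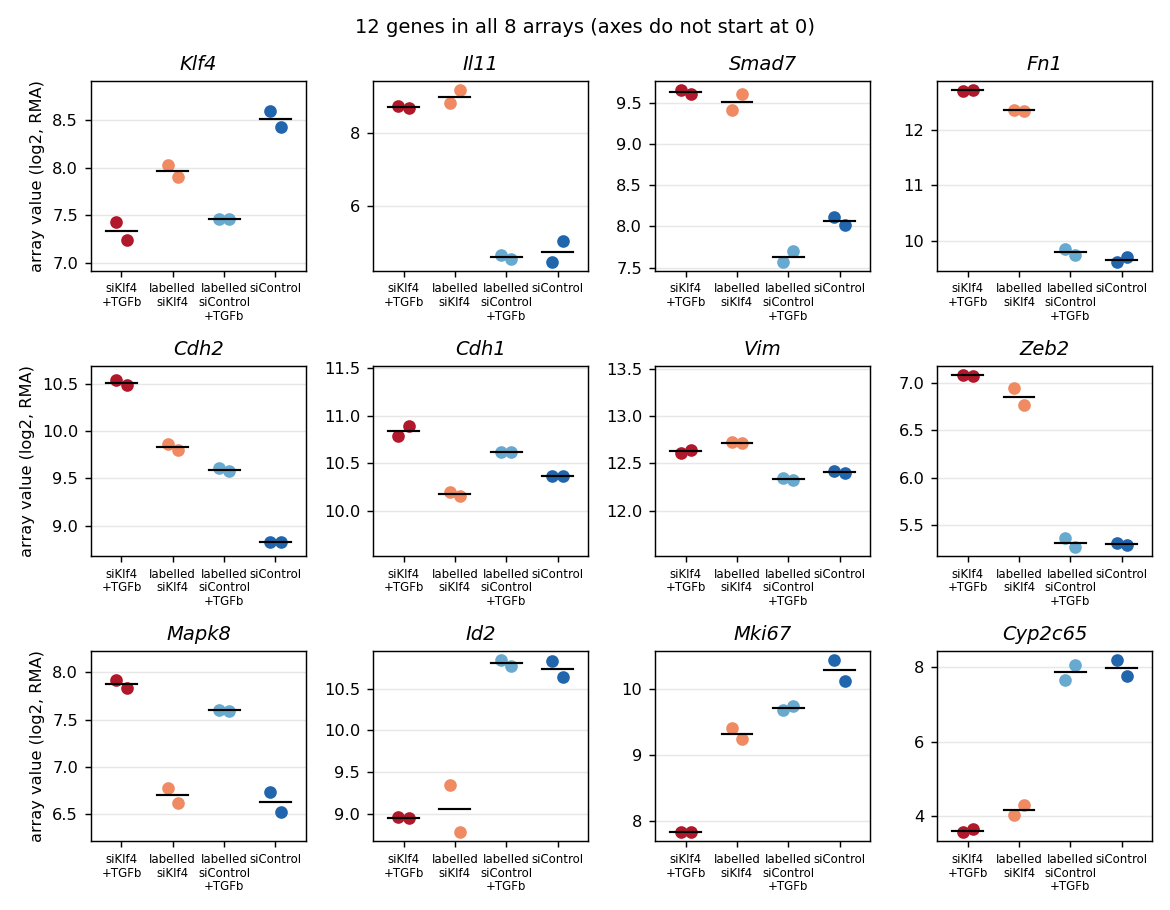
Array values of 12 genes (log2, RMA) in the siKlf4/TGFβ arrays, the arrays labelled siKlf4 without TGFβ, the arrays labelled siControl with TGFβ, and the siControl arrays. Points are arrays, 2 a group, and lines are group means. In Il11, Smad7, Fn1, Zeb2, Id2 and Cyp2c65 the arrays labelled siKlf4 without TGFβ lie beside the siKlf4/TGFβ arrays, and in Mapk8 those labelled siControl with TGFβ do.

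The epithelial identity of the cells was read from markers. The luminal keratin genes Krt8 and Krt18 were far above the array medians in both groups, with 13.41 and 13.42 for Krt8 in siKlf4/TGFβ and 13.10 and 13.10 in siControl. E-cadherin (Cdh1) and Cd24a were also well above the array medians. Other genes of mammary luminal cells were low in both groups: the epithelial adhesion gene Epcam had 4.09 and 3.93 in the siKlf4/TGFβ arrays, against 3.88 and 4.06 in the siControl arrays, and Elf5, Esr1 and the milk protein genes Csn2 and Wap lay between 3.11 and 4.71 as group means. Of 6 basal markers, Acta2 was called higher, at 2.12, and the keratin gene Krt5 and the myosin kinase gene Mylk lower, at −0.85 and −0.97, while Krt14, Oxtr and the transcription factor gene Trp63 were below the array medians in both groups and were not called. The mean over 8 fibroblast markers was 4.96 and 5.05 in the siKlf4/TGFβ arrays, against 4.78 and 4.95 in the siControl arrays, and their defining members Dcn and Lum were near the bottom of the scale in all 4. Of the 8, the collagen gene Col1a1 was called, higher by 0.68. Markers of endothelium, blood cells and fat cells averaged between 4.14 and 4.59 in each of the 4 arrays. In bulk RNA, fewer cells of a kind and less RNA per cell cannot be told apart.

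Of the 19937 genes, 2938 (14.7%) were called higher and 3044 (15.3%) lower in siKlf4/TGFβ cells, and 13955 were not called. In every called gene, both arrays of one group lay above both of the other. Over all genes, both siKlf4/TGFβ arrays lay above both siControl arrays in 5576 genes and below them in 6006. Many genes that were not called were thus separated as well. At least 2-fold differences were called upward in 644 genes and downward in 720, and at least 8-fold differences in 22 and 20 genes. The median difference over all genes was −0.01, and the smallest difference that was called was 0.22 in size. The shares of 14.7% and 15.3% are the background against which the counts of each gene list are read below. The lists and the named genes were chosen with earlier results of these data known, so the counts describe the lists and test nothing about them.

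**Figure D2:**
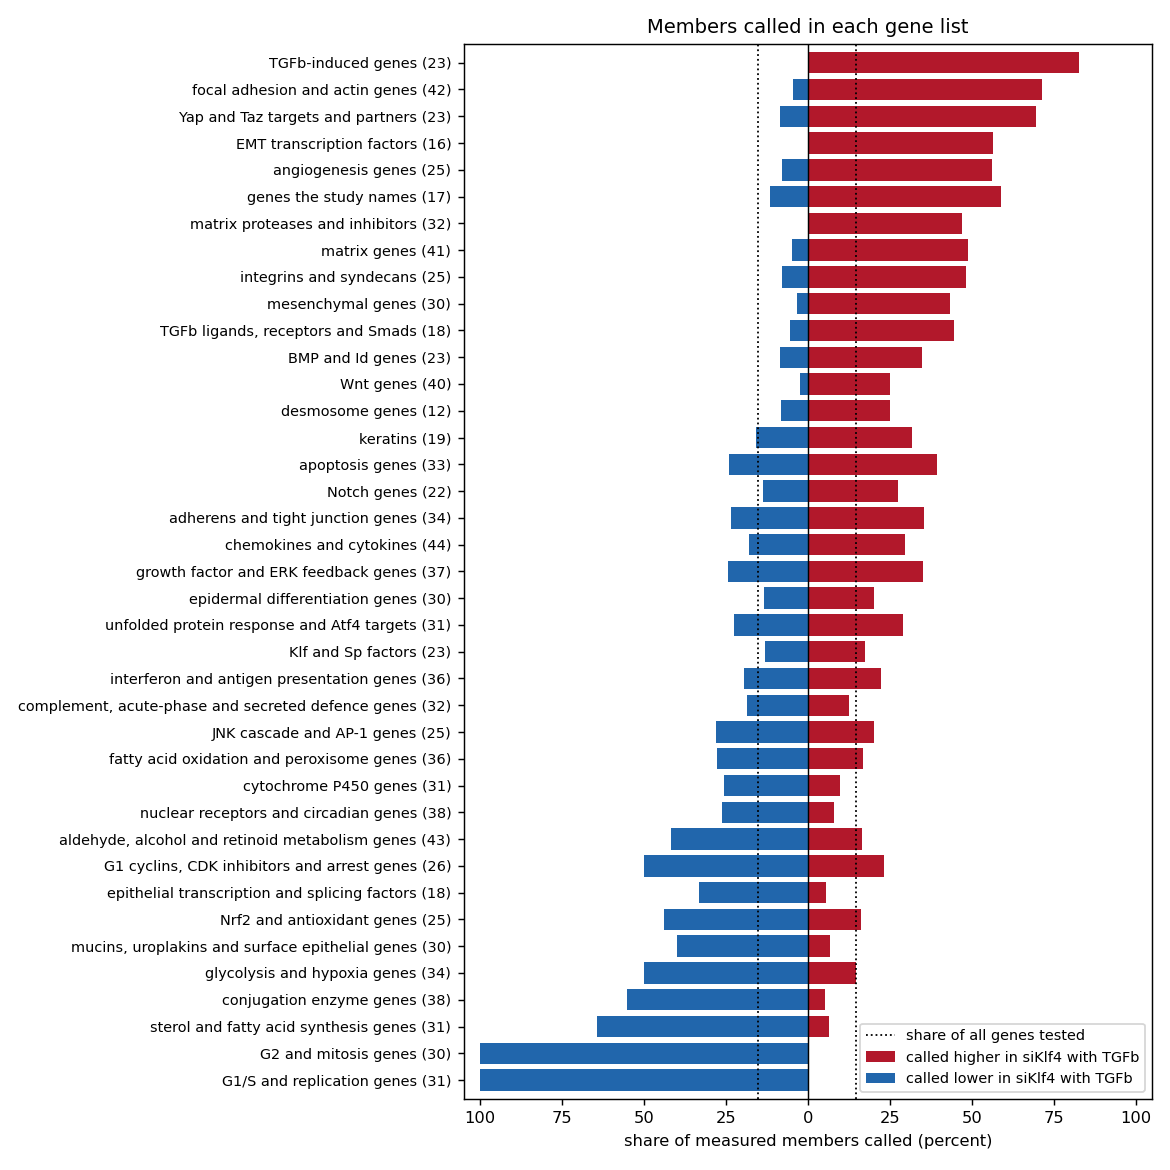
Share of the measured members of 39 gene lists (number in brackets) called higher, to the right, or lower, to the left, in siKlf4/TGFβ against siControl arrays, in percent. Dotted lines mark the shares of all genes tested, 14.7% and 15.3%. The list of TGFβ-induced genes has the highest share called higher, and both cell cycle lists were called lower in every member.

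The 15 genes with the largest increases were led by Tnc and differed in kind. Tnc, which encodes the matrix glycoprotein tenascin C, had 10.45 and 10.41 in the siKlf4/TGFβ arrays, against 5.36 and 4.90 in the siControl arrays. It rose 39.4-fold (log2 difference 5.30 with a standard error of 0.141, limma adjusted p = 1.35e-07). Both siControl arrays were near the array median for Tnc, and both siKlf4/TGFβ arrays were far above it. The thrombospondin gene Thbs1, whose product can activate latent TGFβ, had 12.46 and 12.48 in the siKlf4/TGFβ arrays, against 8.91 and 8.78 in the siControl arrays, so a gene that was already well expressed rose 12.3-fold. Sdc3, a cell surface heparan sulphate proteoglycan, had 9.11 and 9.07 in the siKlf4/TGFβ arrays, against 4.99 and 5.04 in the siControl arrays. The LIM domain gene Lmcd1 had 10.57 and 10.62 in the siKlf4/TGFβ arrays, against 7.01 and 6.66 in the siControl arrays. In each of these genes the distance between the groups was many times that between replicates.

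Among secreted factors, Ppbp, a neutrophil-attracting chemokine known from platelets, had 10.21 and 10.30 in the siKlf4/TGFβ arrays, against 6.14 and 5.49 in the siControl arrays (log2 difference 4.44). Il11 rose 15.8-fold, with the array values given above. The Wnt ligand gene Wnt7a had 9.22 and 9.33 in the siKlf4/TGFβ arrays, against 5.55 and 5.84 in the siControl arrays, and the peptide hormone gene Uts2b rose by 3.53. The siControl arrays of Ppbp, at 6.14 and 5.49, differed more from each other than the siKlf4/TGFβ arrays did. The stromelysin gene Mmp10, which encodes a secreted matrix protease, had 8.86 and 8.90 in the siKlf4/TGFβ arrays, against 5.05 and 4.96 in the siControl arrays. The cathepsin gene Ctsw and the serpin gene Serpinb9e rose by 4.15 and 4.17. The cornified envelope genes Lce1g and Lce1i, known from the outer epidermis, rose by 4.59 and 4.14. Serpinb9e and the Lce1 genes belong to clusters of closely related copies, which share probe sequence in part, so which copy was measured is uncertain. The 15 were completed by Cyp11a1, the enzyme of the first step of steroid hormone synthesis, at 3.35, and by the tight junction gene Cldn4 at 3.32.

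The 15 genes with the largest decreases differed in kind as well, and were led by Cyp2c65. The cytochrome P450 gene Cyp2c65 had 3.56 and 3.65 in the siKlf4/TGFβ arrays, against 8.20 and 7.76 in the siControl arrays (log2 difference −4.37 with a standard error of 0.169, limma adjusted p = 2.99e-07). Mep1a, a membrane protease of the intestinal brush border, had 3.49 and 3.61 in the siKlf4/TGFβ arrays, against 8.06 and 7.75 in the siControl arrays. Both genes were well above the array medians in siControl cells and below them in siKlf4/TGFβ cells. The galectin gene Lgals4, another gut epithelial gene, had 8.27 and 8.75 in the siKlf4/TGFβ arrays, against 12.11 and 12.08 in the siControl arrays. The transmembrane mucin gene Muc1 had 6.51 and 7.09 in the siKlf4/TGFβ arrays, against 10.15 and 10.11 in the siControl arrays. Ccl20, a chemokine of mucosal epithelium, had 5.23 and 5.06 in the siKlf4/TGFβ arrays, against 9.26 and 8.78 in the siControl arrays. The 15 genes were taken only from called genes whose groups do not overlap, so their separation follows from that rule.

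Of the other 10, 5 encode metabolic enzymes that add or remove groups on small molecules: Cyp2s1 at −3.66, the glucuronosyltransferases Ugt2b34 and Ugt2b36 at −3.54 and −3.14, the sulphotransferase Sult1c2 at −3.18, and the methyltransferase-like gene Mettl7b at −3.24. The haem carrier gene Hpx and the junctional immunoglobulin gene Vsig1 had differences of −3.48 and −3.39. Sptssb, a small subunit of the enzyme that starts sphingolipid synthesis, Neurl1b, a ubiquitin ligase for Notch ligands, and Entpd5, a nucleotide phosphatase of the endoplasmic reticulum, had differences of −3.26, −3.26 and −3.25. The Ugt2b genes are near-identical copies of each other in part, and their split between probe sets is uncertain.

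**Figure D3:**
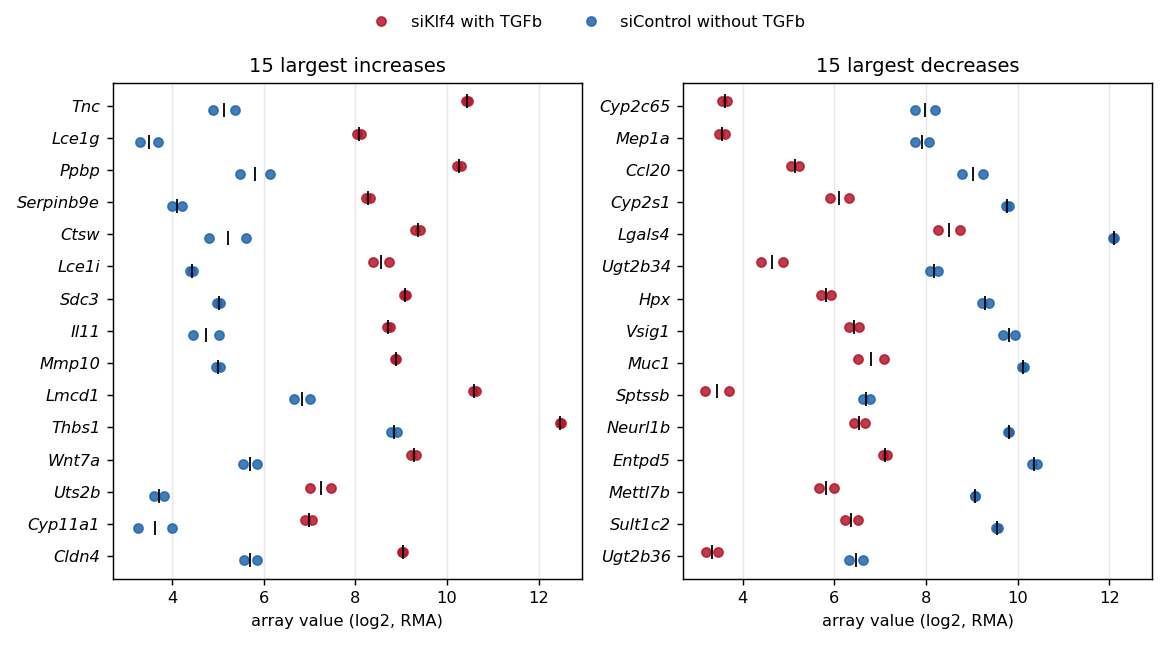
Array values (log2, RMA) of the 15 genes with the largest increase, left, and the largest decrease, right, in siKlf4/TGFβ (upper point of each row) against siControl (lower point). Points are arrays, 2 a group, and short black lines are group means. Only called genes whose groups do not overlap were taken, and among the decreases Lgals4 has the most intense siControl values.

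The promoters of the genes at both ends are shown because they carry the largest differences. They are RefSeq sequences of build GRCm38.p6, from 250 bases before the start of the gene to 50 after it, on the strand of the gene, and the 3 leading genes of each direction with an entry were taken. Capitals mark matches, on either strand, to the AP-1 site TGANTCA, the Klf4 type site GGGNGTGG, the cell cycle homology region (CHR) type site TTTGAA or the E-box CAGGTG bound by Zeb and Snail factors. The promoters of Lce1g and Mep1a held none of these and are not printed. Tnc (chr4:64046966-64047265, minus strand, the first of 2 entries) held none either, Ppbp (chr5:90768268-90768567, plus strand) held 1 AP-1 site, Cyp2c65 (chr19:39060756-39061055, plus strand) 1 CHR type site, and Ccl20 (chr1:83116516-83116815, plus strand) 1 Klf4 type site and 1 E-box.
Tnc: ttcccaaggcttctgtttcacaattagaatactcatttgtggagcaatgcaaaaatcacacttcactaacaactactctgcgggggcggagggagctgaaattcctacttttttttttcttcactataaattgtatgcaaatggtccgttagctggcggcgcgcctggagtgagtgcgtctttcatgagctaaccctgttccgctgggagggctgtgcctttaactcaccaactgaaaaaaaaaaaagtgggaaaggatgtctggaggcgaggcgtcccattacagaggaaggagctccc
Ppbp: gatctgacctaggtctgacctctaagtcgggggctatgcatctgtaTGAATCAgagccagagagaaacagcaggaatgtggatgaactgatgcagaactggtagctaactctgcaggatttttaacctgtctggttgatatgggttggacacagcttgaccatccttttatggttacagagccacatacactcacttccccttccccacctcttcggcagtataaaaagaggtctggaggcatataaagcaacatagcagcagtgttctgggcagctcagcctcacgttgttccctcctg
Cyp2c65: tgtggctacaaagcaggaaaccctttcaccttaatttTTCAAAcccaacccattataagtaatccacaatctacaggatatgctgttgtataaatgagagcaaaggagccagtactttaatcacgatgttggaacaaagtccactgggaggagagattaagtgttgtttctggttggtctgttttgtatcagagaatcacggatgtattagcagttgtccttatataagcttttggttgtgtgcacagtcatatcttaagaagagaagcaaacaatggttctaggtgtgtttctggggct
Ccl20: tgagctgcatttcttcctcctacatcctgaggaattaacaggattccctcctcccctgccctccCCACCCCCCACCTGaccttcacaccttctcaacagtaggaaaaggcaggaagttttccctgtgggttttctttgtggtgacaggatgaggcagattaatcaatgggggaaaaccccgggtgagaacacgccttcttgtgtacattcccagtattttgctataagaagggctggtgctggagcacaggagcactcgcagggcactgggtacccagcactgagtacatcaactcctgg
A match is a description of letters and not of binding. Promoters were at hand for 15562 of the 19937 genes. The AP-1 letters were in 8.02% of the promoters of genes called at least 2-fold higher and in 6.89% of those at least 2-fold lower, against 6.97% of all. The Klf4 type letters were in 22.9% and 23.5%, against 20.5% of all, and the E-box in 15.03% and 16.8%, against 19.2% of all. The CHR type letters were in 5.81% and 23.5%, against 15.2% of all, and are taken up with the mitotic genes below.

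Genes of the TGFβ response were mostly higher. Of 23 TGFβ-induced genes, 19 rose and none fell, with a median log2 difference of 1.17, against −0.01 over all genes. Next to Il11, the latent TGFβ binding protein gene Ltbp1 had 9.84 and 9.88 in the siKlf4/TGFβ arrays, against 7.67 and 7.75 in the siControl arrays. Connective tissue growth factor (Ccn2) had 12.42 and 12.50 in the siKlf4/TGFβ arrays, against 10.50 and 10.46 in the siControl arrays. The feedback inhibitor Smad7 had 9.66 and 9.61 in the siKlf4/TGFβ arrays, against 8.12 and 8.02 in the siControl arrays, and its partner ubiquitin ligase Smurf2 rose by 1.52. The Smad corepressors Skil and Ski rose by 1.71 and 1.19, and Tgif1, another corepressor, by 1.16. The CDK inhibitor gene Cdkn2b, a mediator of TGFβ growth arrest, had 9.93 and 10.05 in the siKlf4/TGFβ arrays, against 8.28 and 8.33 in the siControl arrays. The 4 members that were not called were Junb at 0.11, the lysyl oxidase gene Lox at 0.07, Ltbp2 at 0.06 and Tgfbi at −0.09. Tgfbi is named for its induction by TGFβ in other cells, and had 5.21 and 5.04 in the siKlf4/TGFβ arrays, against 5.02 and 5.40 in the siControl arrays, so its arrays of both groups lay close together. Of the calls, Itgb6 and Nox4, both at 0.26, were lost when any 1 of the 4 arrays compared was left out.

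Ligands, receptors and Smads of the pathway were called in both directions. Of 18 such genes 8 rose and 1 fell, and the count of increases was 5 without siKlf4/TGFβ replicate 2. Among the ligands, the activin subunit Inhba rose by 1.40, Tgfb2 by 0.78 and Tgfb1 by 0.43. The type I receptor Tgfbr1 had 10.56 and 10.57 in the siKlf4/TGFβ arrays, against 9.38 and 9.44 in the siControl arrays, and the type II receptor Tgfbr2, which binds the ligand first, had 8.77 and 8.79 in the siKlf4/TGFβ arrays, against 8.75 and 8.72 in the siControl arrays. Only the first of these receptors was called. Of the signal-carrying Smads, Smad3 had a difference of 0.38 (adjusted p = 0.00508 from limma, lost without siKlf4/TGFβ replicate 2), Smad2 of 0.29 (adjusted p = 0.0609, not called, though called under 6 alternatives and at 0.44 without siControl replicate 1) and the common partner Smad4 of 0.03 (not called). The accessory receptor Tgfbr3 was the member that fell, by 0.37 on the log2 scale, and was not called when either siKlf4/TGFβ array was left out.

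The BMP branch was split. Of 23 BMP and Id genes, 8 rose and 2 fell. The procollagen protease gene Bmp1 rose by 2.35, the activin and BMP antagonist follistatin (Fst) by 1.85, and the receptor genes Acvr1 and Bmpr2 by 1.72 and 1.16. Id proteins hold back basic helix-loop-helix factors and keep epithelial cells from differentiating. Id2 had 8.96 and 8.95 in the siKlf4/TGFβ arrays, against 10.84 and 10.64 in the siControl arrays. Id1 had 7.98 and 7.99 in the siKlf4/TGFβ arrays, against 9.30 and 9.07 in the siControl arrays. Id3 moved the other way, with 7.08 and 7.15 in the siKlf4/TGFβ arrays, against 6.49 and 5.997 in the siControl arrays, so the 3 Id genes called here did not share a direction. Msx1, Msx2, Smad6 and Bambi, targets of BMP signals, were not called, at 0.24, 0.04, 0.22 and −0.22. Smad6 was called under 4 alternatives, Msx1 under 3, and Bambi, at −0.47, without siControl replicate 1.

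Several EMT transcription factors were higher and none was lower. Of 16 such genes, 9 rose, with a median of 0.48. Zeb2, a repressor of E-cadherin, had 7.09 and 7.08 in the siKlf4/TGFβ arrays, against 5.30 and 5.28 in the siControl arrays. Its relative Zeb1 had 7.86 and 7.89 in the siKlf4/TGFβ arrays, against 6.83 and 6.60 in the siControl arrays, and Snai1 had 7.04 and 7.24 in the siKlf4/TGFβ arrays, against 5.86 and 6.15 in the siControl arrays. In each of these 3 the groups lay further apart than the replicates did, and the replicates were closest in Zeb2. Sox4, a master factor of EMT in NMuMG cells, had 11.28 and 11.31 in the siKlf4/TGFβ arrays, against 9.67 and 9.60 in the siControl arrays, Ets1 rose by 1.32, Sox9 by 1.21 and the chromatin protein gene Hmga2 by 1.000. Snai2, Twist1, Twist2, Prrx1, Foxc2 and Gsc were not called, with differences between −0.20 and 0.02. Snai2 had 3.40 and 3.25 in the siKlf4/TGFβ arrays, against 3.29 and 3.36 in the siControl arrays, well below the array medians in both groups, and Twist1 had 4.76 and 5.01 in the siKlf4/TGFβ arrays, against 4.94 and 5.23 in the siControl arrays, close to them.

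Epithelial transcription factors gave a mixed picture. Of 18 epithelial transcription and splicing factor genes, 6 fell, 1 rose and 11 were not called. The Ets family gene Ehf, an epithelium-specific factor, had 6.47 and 6.80 in the siKlf4/TGFβ arrays, against 8.94 and 8.71 in the siControl arrays. Klf5, a close relative of Klf4 in gut and skin, had 7.90 and 7.81 in the siKlf4/TGFβ arrays, against 9.32 and 9.26 in the siControl arrays. Foxa2 and Hnf4a, factors of gut and liver epithelium, fell, with log2 differences of −1.22 and −1.07, and Hnf4a stood at 8.25 and 8.42 in siKlf4/TGFβ and 9.48 and 9.34 in siControl arrays. Elf3, another Ets factor of epithelia, was the gene that rose, at 0.85. The epithelial splicing regulators Esrp1 and Esrp2 and the factors Ovol1, Ovol2 and Grhl2, which hold the epithelial state in other cells, were not called, with differences between −0.06 and 0.09. For these 18 genes the median of the group means was 4.83 in siKlf4/TGFβ and 4.90 in siControl, near the array medians. Many members were thus dim, and a dim gene that was not called cannot be said to have kept its expression.

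Among Klf and Sp factors as a family, 4 of 23 rose and 3 fell, shares near the background. Those that fell were Klf5, Klf4 and Sp1, at −1.43, −1.18 and −0.40. Those that rose were Klf9 at 1.71, Klf7 at 1.29, Klf6 at 0.86 and Klf11 at 0.45. Klf10, a gene induced early by TGFβ, had 7.71 and 7.60 in the siKlf4/TGFβ arrays, against 7.34 and 7.38 in the siControl arrays and was not called, although 7 alternatives called it, with adjusted p-values from 0.0256 to 0.0456.

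The genes that the study itself discusses, as markers, regulators or targets, were 17, of which 10 rose and 2 fell. The study chose some of these 17 on these arrays, so their direction is no independent evidence. The 2 that fell were Klf4 itself, at which the siRNA was aimed, and the ZO-1 gene given below. Fibronectin (Fn1) had 12.70 and 12.73 in the siKlf4/TGFβ arrays, against 9.61 and 9.70 in the siControl arrays, 8.35-fold higher. N-cadherin (Cdh2), the cadherin of mesenchymal cells, had 10.54 and 10.48 in the siKlf4/TGFβ arrays, against 8.83 and 8.83 in the siControl arrays (log2 difference 1.68, adjusted p = 5.06e-07 from limma). E-cadherin (Cdh1), the cadherin of adherens junctions in epithelium, had 10.79 and 10.89 in the siKlf4/TGFβ arrays, against 10.37 and 10.36 in the siControl arrays (log2 difference 0.48, adjusted p = 0.00114 from limma). Both cadherin genes were thus higher in siKlf4/TGFβ than in siControl arrays. The intermediate filament gene Vim had 12.61 and 12.64 in the siKlf4/TGFβ arrays, against 12.42 and 12.40 in the siControl arrays. Its difference of 0.22 missed the threshold (adjusted p = 0.0533 from limma). The groups did not overlap, as in many genes that were not called. Vim was called under 5 of the alternatives, with adjusted p-values up to 0.0430. The Jun kinase gene Mapk8 had 7.91 and 7.83 in the siKlf4/TGFβ arrays, against 6.73 and 6.52 in the siControl arrays (log2 difference 1.24, adjusted p = 1.12e-05 from limma). Endothelin 1 (Edn1), a vasoconstrictor peptide, rose by 1.49 and the angiogenic factor Vegfa by 0.95. The focal adhesion adaptor paxillin (Pxn) had 0.36 and was not called without siKlf4/TGFβ replicate 2 or siControl replicate 2. The tight junction scaffold ZO-1 (Tjp1) fell by 0.42 on the log2 scale and was not called without siKlf4/TGFβ replicate 1. β-catenin (Ctnnb1), Smad4, Snai2 and Twist1 were not called, and Ctnnb1 had 11.73 and 11.73 in the siKlf4/TGFβ arrays, against 11.66 and 11.64 in the siControl arrays.

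Among 30 mesenchymal genes as a whole, 13 rose and 1 fell, with a median of 0.25. The smooth muscle genes of stress fibres were among those that rose: Tagln had 8.11 and 7.74 in the siKlf4/TGFβ arrays, against 5.05 and 5.61 in the siControl arrays, and Acta2 had 7.48 and 7.39 in the siKlf4/TGFβ arrays, against 5.37 and 5.27 in the siControl arrays. The matricellular gene Sparc rose by 1.78 and the neural adhesion gene Ncam1 by 1.62. S100a4, a calcium-binding protein widely used as a fibroblast marker, was the member that fell, with 6.71 and 6.56 in the siKlf4/TGFβ arrays, against 8.77 and 8.53 in the siControl arrays. Of genes known from tissue fibroblasts, Col1a1 rose by 0.68, and Col1a2, Col3a1, Dcn, Lum, Postn, Fap and Thy1 were not called, with differences between −0.13 and 0.12.

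**Figure D4:**
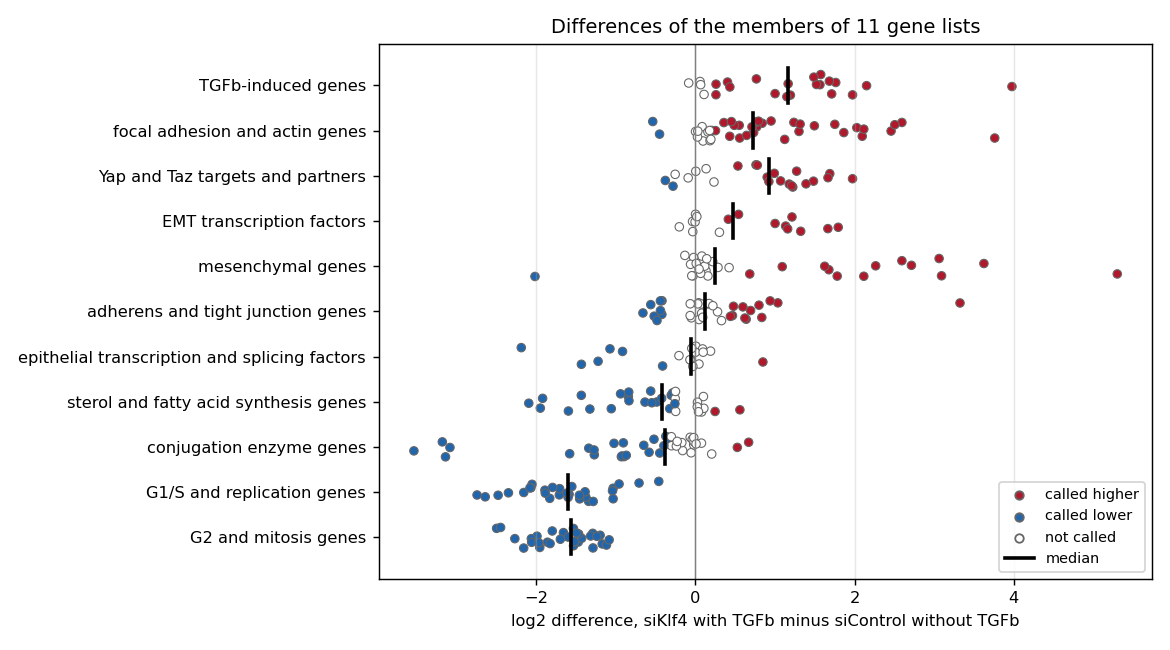
Log2 difference, siKlf4/TGFβ minus siControl, of each measured member of 11 gene lists. Filled points were called, open points were not, and the black line is the median of the list. The lists of TGFβ-induced, focal adhesion and actin, and Yap and Taz genes lie mostly to the right, and every member of both cell cycle lists lies to the left of 0.

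Cell junction genes did not fall as a group. Of 34 adherens and tight junction genes, 12 rose and 8 fell, the decreases numbering 2 without siKlf4/TGFβ replicate 1 and 5 under the one-way analysis of variance. Adherens junction genes were among those that rose: the p120 catenin gene Ctnnd1 had 10.35 and 10.36 in the siKlf4/TGFβ arrays, against 9.31 and 9.33 in the siControl arrays, and the nectin genes Nectin1, Nectin2 and Nectin3 rose by 0.80, 0.83 and 0.94. Cldn4 had 9.04 and 9.02 in the siKlf4/TGFβ arrays, against 5.58 and 5.85 in the siControl arrays. Of the tight junction strand gene Ocln, the values were 6.07 and 6.30 in the siKlf4/TGFβ arrays, against 6.63 and 6.87 in the siControl arrays, a decrease that was lost under the one-way analysis of variance and without siKlf4/TGFβ replicate 1. The polarity gene Crb3 fell by 0.66 on the log2 scale. In desmosomes, the plakophilins Pkp1 and Pkp2 rose by 1.11 and 1.03, while Ppl, a plakin that links desmosomes to keratin, had 6.99 and 7.11 in the siKlf4/TGFβ arrays, against 9.91 and 9.85 in the siControl arrays. The desmosomal core genes Dsp, Dsg2 and Dsc2 were not called.

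Keratins were called in both directions, 6 up and 3 down of 19. Krt18 had 12.82 and 12.85 in the siKlf4/TGFβ arrays, against 12.26 and 12.18 in the siControl arrays. Krt7 rose by 0.75. Krt19, another keratin of simple epithelium, went the other way with 11.38 and 11.47 in the siKlf4/TGFβ arrays, against 12.65 and 12.60 in the siControl arrays. Krt8, the partner of Krt18, had a difference of 0.32 and was not called when either siKlf4/TGFβ array was left out. Of 30 epidermal differentiation genes, 6 rose and 4 fell, shares of 20.0% and 13.3% that lie near the background. Lce1f and Lce1h rose with Lce1g and Lce1i, by 3.06 and 2.15, the second not called under the one-way analysis of variance, while Lce1a1, Lce1b, Lce1c, Lce1d and Lce1l of the same cluster were not called. Without siControl replicate 2, Lce1c was called, at 0.58. The small proline-rich genes Sprr1a and Sprr2h fell, with log2 differences of −0.71 and −1.29, and loricrin (Lor) was not called at −0.01.

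Focal adhesion and actin genes were higher in most members. Of 42 genes, 30 rose and 2 fell, with a median of 0.72. α-actinin 1 (Actn1), which cross-links actin filaments, had 11.56 and 11.55 in the siKlf4/TGFβ arrays, against 9.21 and 8.99 in the siControl arrays. Vinculin (Vcl), which ties integrins to actin, had 10.90 and 10.92 in the siKlf4/TGFβ arrays, against 8.98 and 8.79 in the siControl arrays. The actin capping gene Capg rose by 2.505, the tropomyosin-binding gene Cald1 by 2.10, and the adhesion plaque genes Pdlim7 and Zyx by 1.86 and 1.30. The cytoskeletal β-actin gene (Actb) had 13.34 and 13.35 in the siKlf4/TGFβ arrays, against 13.15 and 13.16 in the siControl arrays and was not called. The actin-binding gene Lasp1 fell by 0.54 on the log2 scale.

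Genes of Yap and Taz, the transcriptional coactivators that respond to cell spreading, were higher as well. Of 23 targets and partners, 16 rose and 2 fell, with a median of 0.92. The cardiac ankyrin repeat gene Ankrd1 had 11.95 and 11.94 in the siKlf4/TGFβ arrays, against 10.39 and 10.12 in the siControl arrays. Yap1 itself had 9.24 and 9.24 in the siKlf4/TGFβ arrays, against 8.32 and 8.18 in the siControl arrays. The DNA-binding partners Tead1 and Tead2 rose by 1.07 and 1.39 and the inhibitory kinase Lats2 by 1.48, while Tead3 and Tead4 were not called. The targets Ccn2 and Ccn1 rose by 1.97 and 0.90, and 2 of these genes, Ccn2 and Tgfb2, are also in the TGFβ lists above.

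Matrix genes and their receptors rose in about equal shares. Of 41 matrix genes, 20 rose and 2 fell. Basement membrane collagen IV was higher in both chains, Col4a1 with 9.56 and 9.69 in the siKlf4/TGFβ arrays, against 7.25 and 7.42 in the siControl arrays and Col4a2 with a difference of 1.138. The laminin β chains Lamb1 and Lamb3 rose by 2.12 and 1.95, while the α and γ chains Lama3, Lama5 and Lamc1 were not called, at 0.15, 0.08 and 0.04. The fibril-associated collagen gene Col12a1 and the fibulin gene Fbln2 rose by 2.68 and 3.05. The basement membrane linker gene Nid2 fell by 0.75 on the log2 scale, and its relative Nid1 was not called at −0.18.

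Integrins of fibronectin were among the receptors that rose most. Of 25 integrin and syndecan genes, 12 rose and 2 fell. Itga5, the fibronectin-binding α chain, had 8.96 and 8.88 in the siKlf4/TGFβ arrays, against 6.29 and 6.12 in the siControl arrays. Itgb3 had 10.12 and 10.08 in the siKlf4/TGFβ arrays, against 6.89 and 7.12 in the siControl arrays. Itga2, a chain of a collagen receptor, rose by 2.26, and Itga1, the chain of another collagen receptor, fell with 5.01 and 4.99 in the siKlf4/TGFβ arrays, against 6.42 and 6.51 in the siControl arrays. The common β chain Itgb1 rose by 1.16 and the hyaluronan receptor Cd44 by 1.13. Matrix proteases and their inhibitors rose in 15 of 32 genes and fell in none. The membrane-bound collagenase Mmp14 had 10.91 and 10.95 in the siKlf4/TGFβ arrays, against 8.67 and 8.66 in the siControl arrays. Adam9 and the cathepsin gene Ctsl rose by 2.34 and 1.70. The gelatinase gene Mmp2, and the plasminogen activator genes Plau and Plat, were not called, at 0.13, 0.12 and 0.15.

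Angiogenesis genes were called mostly upward, and growth factor genes in both directions. Of 25 angiogenesis genes, 14 rose and 2 fell. The lymphatic growth factor Vegfc had 7.09 and 7.37 in the siKlf4/TGFβ arrays, against 4.89 and 5.25 in the siControl arrays, and the semaphorin and VEGF co-receptor Nrp1 had 10.06 and 9.98 in the siKlf4/TGFβ arrays, against 8.19 and 7.91 in the siControl arrays. The platelet-derived growth factor genes Pdgfa and Pdgfb rose by 2.48 and 2.25. Angpt2 and Vegfb were the 2 that fell, at −1.005 and −0.62. Of 37 growth factor and ERK feedback genes, 13 rose and 9 fell. The receptor genes of epithelial growth factors Fgfr2 and Erbb3 fell, with log2 differences of −1.16 and −1.17, and the FGF carrier gene Fgfbp1 had 4.72 and 4.87 in the siKlf4/TGFβ arrays, against 6.96 and 6.46 in the siControl arrays. The insulin-like growth factor receptor Igf1r rose by 1.26.

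In the Notch pathway, 6 of 22 genes rose and 3 fell. The ligand Jag1 had 11.42 and 11.41 in the siKlf4/TGFβ arrays, against 9.51 and 9.49 in the siControl arrays. The receptors differed in direction, with Notch2 at 1.04 and Notch1 at −0.72. The target gene Hes1 was not called at 0.17. In the Wnt pathway, 10 of 40 rose and 1 fell. Beside Wnt7a, the ligand gene Wnt9a rose by 1.46 and the receptor genes Fzd1 and Fzd2 by 1.07 and 1.33. Axin2, a feedback target of β-catenin, rose by 0.60, the target Lef1 was not called at −0.23 (called at −0.48 without siControl replicate 1), and Tcf7l2, the DNA-binding partner of β-catenin, was the gene that fell, at −0.85.

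Cell cycle genes were lower without exception in both lists. All 31 genes of the G1/S transition and of DNA replication fell, with a median log2 difference of −1.60, and so did the whole list of 30 G2 and mitosis genes, with a median of −1.57. Against 15.3% of all genes, the share was 100% in each list. Uhrf1, which carries DNA methylation through replication, had 7.74 and 7.96 in the siKlf4/TGFβ arrays, against 10.65 and 10.54 in the siControl arrays. The replicative helicase subunit Mcm5 had 7.74 and 7.64 in the siKlf4/TGFβ arrays, against 10.19 and 10.14 in the siControl arrays. The sliding clamp Pcna had 10.78 and 10.43 in the siKlf4/TGFβ arrays, against 12.21 and 12.20 in the siControl arrays. In each the groups lay further apart than the replicates did. The other 5 subunits of the helicase, Mcm2, Mcm3, Mcm4, Mcm6 and Mcm7, fell, with log2 differences of −1.34, −1.71, −1.04, −1.83 and −1.59 in the order named. The smallest decreases in this list were in Ccne1 at −0.46 and Cdk2 at −0.71. Among the mitotic genes, the proliferation antigen gene Mki67 had 7.84 and 7.83 in the siKlf4/TGFβ arrays, against 10.44 and 10.13 in the siControl arrays. The chromosomal passenger kinase Aurkb had 7.39 and 7.34 in the siKlf4/TGFβ arrays, against 9.87 and 9.85 in the siControl arrays and the mitotic kinase gene Cdk1 had 8.62 and 8.60 in the siKlf4/TGFβ arrays, against 10.15 and 10.02 in the siControl arrays. Cyclin A (Ccna2) and the spindle motor Kif11 fell, with log2 differences of −1.99 and −2.06. Both counts were the same under every alternative that was run.

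**Figure D5:**
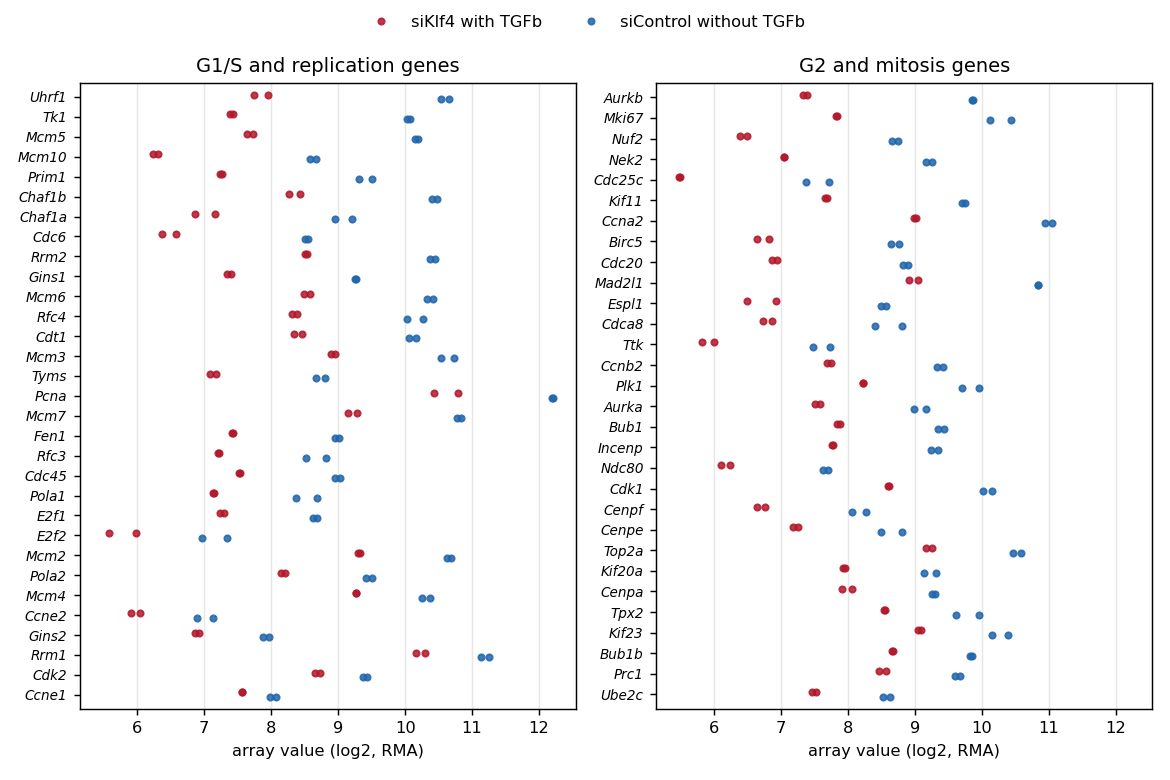
Array values (log2, RMA) of 31 genes of G1/S and replication, left, and 30 genes of G2 and mitosis, right, in siKlf4/TGFβ (upper points) against siControl arrays (lower points), 2 arrays a group, sorted by the size of the decrease with the largest on top. In no row do the groups overlap, as in every called gene.

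Many mitotic genes carry a CHR element near their start, which the DREAM complex uses to silence them in resting cells. The letters TTTGAA, on either strand, were in the promoters of 18 of the 24 G2 and mitosis genes that had an entry, against 15.2% of all promoters. In 17 of the 18 a match lay within 50 bases of the start. The AP-1 letters and the E-box were in 0 of the 24. The windows below show the match nearest to the start, in capitals, with 12 bases on each side, in 7 of these genes. The 7 were chosen for their large decrease, and another gene with a match and a decrease within their range was left out. The windows are on the strand of the gene in build GRCm38.p6 of RefSeq. Mki67 is at chr7:135716460-135716489, Kif11 at chr19:37376351-37376380, Cdc20 at chr4:118437344-118437373, Espl1 at chr15:102296254-102296283, Ttk at chr9:83834684-83834713, Ccnb2 at chr9:70421533-70421562 and Plk1 at chr7:122159453-122159482.
Mki67: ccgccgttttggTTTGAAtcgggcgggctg
Kif11: tcgtctccatttTTCAAAattgaggcgcgg
Cdc20: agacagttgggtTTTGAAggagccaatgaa
Espl1: tcactagggataTTTGAAaggaggtgctgg
Ttk: cagcggggaaatTTCAAAcgtgtttccgga
Ccnb2: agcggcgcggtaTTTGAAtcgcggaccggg
Plk1: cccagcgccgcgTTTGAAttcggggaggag
Counted from the start of the gene, with bases before it negative, the match began at −19, −18 and −27 in Kif11, Cdc20 and Espl1, at 8, 5 and 31 in Ttk, Ccnb2 and Plk1, and in Mki67 further upstream, at −98. The log2 differences of these 7 genes ran between −2.45 in Mki67 and −1.60 in Plk1. Since the list of mitotic genes holds many genes known for this element, the share describes the list and does not test the element.

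The regulators that act ahead of these genes were split. Of 26 G1 cyclin, CDK inhibitor and arrest genes, 6 rose and 13 fell. Beside Cdkn2b, the stress genes Gadd45a and Gadd45g rose by 1.25 and 2.06. Of the other Ink4 inhibitors, Cdkn2c and Cdkn2d fell. Cdkn2c had 6.23 and 6.09 in the siKlf4/TGFβ arrays, against 8.43 and 8.35 in the siControl arrays, and Cdkn2d had a difference of −1.67. The inhibitor Cdkn1b fell as well, at −0.51, and so did the D cyclins Ccnd1, Ccnd2 and Ccnd3, at −0.46, −1.93 and −0.97. Myc, a driver of growth that TGFβ represses in many epithelial cells, was higher, with 10.73 and 10.78 in the siKlf4/TGFβ arrays, against 10.07 and 9.73 in the siControl arrays.

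Genes of cell death were called in both directions, 13 up and 8 down of 33. The count of increases was 8 without either siKlf4/TGFβ array, and that of decreases 3 without siKlf4/TGFβ replicate 1. The BH3-only genes that open the mitochondrial death pathway differed among themselves. Pmaip1 (Noxa) had 8.76 and 8.71 in the siKlf4/TGFβ arrays, against 6.81 and 6.78 in the siControl arrays. Bcl2l11 (Bim), a gene induced by TGFβ in epithelial cells, had 8.34 and 8.47 in the siKlf4/TGFβ arrays, against 6.87 and 6.36 in the siControl arrays. Bmf rose by 0.67, Bad fell by 0.71 on the log2 scale, and Bbc3 (Puma) and Hrk were not called, at −0.05 and −0.05. The effector caspase Casp6 rose by 1.07 and the initiator Casp2 fell by 0.87 on the log2 scale.

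In the Jun kinase cascade and AP-1, 5 of 25 genes rose and 7 fell. Mapk8 rose as given above, and its relative Mapk9 rose by 0.47. The upstream kinases Map3k1 and Map3k5 fell, with log2 differences of −1.47 and −0.84. Of the AP-1 subunits, Fosl2 had 9.45 and 9.55 in the siKlf4/TGFβ arrays, against 7.98 and 7.89 in the siControl arrays, and Fos had 7.55 and 7.72 in the siKlf4/TGFβ arrays, against 8.69 and 8.61 in the siControl arrays. Fosl1 and Fosb fell, with log2 differences of −0.71 and −0.68, and Jun, Junb and Jund were not called, with differences between 0.11 and 0.13.

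Genes that handle foreign and reactive compounds were lower more often than higher. Of 38 conjugation enzyme genes 21 fell and 2 rose, with a median of −0.39. The sulphotransferase Sult1d1 had 3.24 and 3.61 in the siKlf4/TGFβ arrays, against 6.65 and 6.37 in the siControl arrays. The glutathione transferases Gsta4 and Gstm1 fell, at −1.58 and −1.27, as did the epoxide hydrolase Ephx1, at −1.27. Those that rose were Gsto2 and Gstk1, at 0.67 and 0.53. Of 31 cytochrome P450 genes, 8 fell and 3 rose. Cyp3a13 and Cyp4b1 fell, with log2 differences of −2.33 and −2.20. Cyp1b1, a P450 of mesenchymal cells and a target of the aryl hydrocarbon receptor, went the other way, with 9.49 and 9.46 in the siKlf4/TGFβ arrays, against 6.83 and 6.78 in the siControl arrays, while Cyp1a1, the best known target of that receptor, was not called at 0.06.

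In aldehyde, alcohol and retinoid metabolism, 18 of 43 genes fell and 7 rose. The retinaldehyde dehydrogenase gene Aldh1a1 had 5.61 and 5.56 in the siKlf4/TGFβ arrays, against 8.33 and 8.40 in the siControl arrays. The retinol carrier gene Rbp4 had 9.70 and 9.83 in the siKlf4/TGFβ arrays, against 12.19 and 12.08 in the siControl arrays. The aldo-keto reductase genes Akr1c18 and Akr1c19 fell, with log2 differences of −2.52 and −3.02, and Akr1b8 rose by 1.06. Rdh10, which makes retinaldehyde from retinol, rose by 1.80. Among 25 Nrf2 and antioxidant genes, 11 fell and 4 rose. The glutathione synthesis gene Gclc had 8.66 and 8.69 in the siKlf4/TGFβ arrays, against 10.58 and 10.58 in the siControl arrays, while its partner subunit Gclm was not called at −0.07. The quinone reductase Nqo1 and the selenium carrier Selenop fell, at −1.12 and −2.33, and the haem oxygenase gene Hmox1 rose by 0.75.

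Lipid and sugar metabolism were lower in part. Of 31 genes of sterol and fatty acid synthesis, 20 fell and 2 rose, with a median of −0.42. The fatty acid elongase Elovl6 had 6.41 and 6.39 in the siKlf4/TGFβ arrays, against 8.50 and 8.49 in the siControl arrays. Lanosterol synthase (Lss) had 7.64 and 7.63 in the siKlf4/TGFβ arrays, against 9.21 and 9.25 in the siControl arrays. The sterol isomerase Ebp and the sterol sensor Insig1 fell, at −1.95 and −1.33, while the desaturase genes Scd1 and Scd2 were not called, at 0.03 and 0.02. Of 36 genes of fatty acid oxidation, 10 fell and 6 rose, with 5 and 6 decreases when siKlf4/TGFβ replicate 1 or 2 was left out. The carnitine transferase Cpt1a, the entry step, fell by 1.40 on the log2 scale.

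Of 34 glycolysis and hypoxia genes, 17 fell and 5 rose, with a median of −0.34. Egln3, an oxygen sensor induced by hypoxia, had 7.04 and 7.17 in the siKlf4/TGFβ arrays, against 9.56 and 9.65 in the siControl arrays. The mitophagy gene Bnip3 had 5.71 and 5.90 in the siKlf4/TGFβ arrays, against 8.07 and 8.03 in the siControl arrays. The monocarboxylate carrier Slc16a1 fell, at −2.11, and so did the enzymes Ldha and Pgk1, at −0.95 and −0.96. The members that rose included hexokinase 2 (Hk2) at 1.36 and the glycolytic regulator Pfkfb3 at 1.32, and the hypoxia factor Hif1a was not called at 0.05.

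Surface and defence genes of epithelium fell in several cases. Of 30 mucin, uroplakin and surface genes, 12 fell and 2 rose. The brush border cadherin genes Cdhr5 and Cdhr2 and the uroplakin gene Upk1b fell, at −1.82, −1.38 and −1.85, while villin (Vil1), the actin bundler of the brush border, had 9.17 and 9.16 in the siKlf4/TGFβ arrays, against 9.44 and 9.35 in the siControl arrays and was not called. Ceacam1, a cell adhesion gene, rose by 1.55. Of 32 complement, acute-phase and secreted defence genes, 6 fell and 4 rose, close to the background. The siderophore-binding gene Lcn2 had 5.09 and 4.67 in the siKlf4/TGFβ arrays, against 6.99 and 6.43 in the siControl arrays, complement factor Cfb fell by 2.29 on the log2 scale, and clusterin (Clu) rose by 1.62.

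Cytokine genes were called in both directions, 13 up and 8 down of 44. The myeloid growth factor Csf2 rose by 1.64, and the monocyte chemokine Ccl2 had 9.27 and 9.08 in the siKlf4/TGFβ arrays, against 8.13 and 7.69 in the siControl arrays. The alarmin Il33 had 7.87 and 8.01 in the siKlf4/TGFβ arrays, against 10.92 and 10.64 in the siControl arrays. The neutrophil chemokine Cxcl1 fell by 1.13 on the log2 scale, the opposite of its relative Ppbp. Of 36 interferon and antigen presentation genes, 8 rose and 7 fell, the decreases numbering 4 without siKlf4/TGFβ replicate 1 and under the one-way analysis of variance. The light chain of MHC class I, B2m, had 10.84 and 10.70 in the siKlf4/TGFβ arrays, against 9.73 and 9.56 in the siControl arrays. Ifit2, an interferon-induced gene, fell by 1.13 on the log2 scale, and Mx1, Rsad2, Tap1 and Psmb8 were not called.

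Of 31 genes of the unfolded protein response, 9 rose, or 5 without siKlf4/TGFβ replicate 2, and 7 fell. The stress kinase Eif2ak3 (Perk) had 9.52 and 9.59 in the siKlf4/TGFβ arrays, against 8.02 and 8.09 in the siControl arrays, and the secretory factor Xbp1 rose by 1.01. Downstream, Atf4, Trib3 and Asns were not called, with differences between −0.06 and −0.02, and Ddit3 fell by 0.70 on the log2 scale. Of 38 nuclear receptor and circadian genes, 10 fell and 3 rose. The mineralocorticoid receptor Nr3c2 had 5.08 and 5.63 in the siKlf4/TGFβ arrays, against 7.001 and 6.82 in the siControl arrays. The clock genes Per1, Per2 and Dbp fell, with log2 differences of −0.75, −0.78 and −0.80, and the repressor Nfil3 rose by 1.25, while Clock and Nr1d1 were not called, at 0.03 and −0.05.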

How the data were processed

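RNA of NMuMG cells was hybridised to 8 Affymetrix whole-transcript gene arrays, 2 in each of 4 groups taken from the sample labels. The authors normalized the raw arrays with RMA, and the values they deposited are on a log2 scale, 1 for each probe set and array; the base was read from their range. The submitters' processing notes name oligo 1.14.0. Background settings are not given in the sources used here. Of 34760 probe sets, 21640 had 1 gene symbol in the platform annotation, 1321 several and 11799 none. Of the 21640, 21553 matched a RefSeq gene by Entrez ID. 954 genes had several probe sets, and of these the most intense on average over the 8 arrays was kept.

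Differences were computed with limma 3.58.1 in R 4.3.3, with 1 mean per group over the 8 arrays and moderated variances. The fit had 4 residual degrees of freedom and was tested on simulated data. The methods of the study name a one-way analysis of variance without a threshold. Members and gene lists were chosen with earlier results of these data known. Named genes are Klf4, the genes the study discusses, the 15 largest called changes in each direction without clone names, and up to 6 members of each list, with counter-examples. Where a list has more members named, those beyond 6 were chosen after their values were seen. Alternatives tried were a replicate block, the 4 arrays alone, a trended and robust eBayes, the one-way analysis of variance, array weights, quantile or cyclic loess normalization, the removal of the dimmest 30% of genes, averaging of probe sets, and leaving out each array. What is called the one-way analysis of variance here tested this contrast alone, with unmoderated variances pooled over the groups. It was no F test over all groups, and the test of the study was not rerun. The number of arrays limits the precision. Sequences are those of RefSeq, GRCm38.p6. ChIP-Seq was not analysed here, and some items are not reported here.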

Additional observations from a re-analysis of the deposited data

How the results depend on the processing

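The counts of genes called were 2938 higher and 3044 lower. With the replicate number as a block (replicate block) they were 3005 and 3122. Deviations of same-numbered arrays had a correlation of −0.05 between these 2 groups and of up to 0.382 between other groups, and the numbers were not taken to pair the arrays. Under the 9 alternatives that kept all arrays, the counts ranged from 2478 to 3227 higher and from 2525 to 3303 lower, with the lowest under the one-way analysis of variance. Leaving out 1 array gave 2165 to 3012 higher and 2187 to 3113 lower, where the remaining array of a group takes its spread from the other groups. Of the 262 named genes that were called, 13 lost the call under at least 1 alternative, and 0 changed sign while called. Beside those given with their results, these were Col1a1, Gsto2 and Krt5 under the one-way analysis of variance and Hoxb13 under 5 alternatives. A further 11 named genes gained the call under at least 1 alternative. These were Klf10 under 7, Smad2 under 6, Vim under 5, Smad6 under 4, Actb, Lce1l, Msx1 and Vil1 under 3 each, and Bambi, Lce1c and Lef1 when a siControl array was left out.

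Counts in lists that moved by over 1.5 times were few. Under the one-way analysis of variance, adherens and tight junction genes had 5 decreases and interferon genes 4. Leaving out 1 array gave from 5 to 9 increases among TGFβ ligands, receptors and Smads, from 2 to 8 decreases among junction genes, from 8 to 13 increases and 3 to 7 decreases among apoptosis genes, from 5 to 10 decreases in fatty acid oxidation, from 4 to 9 decreases among interferon genes and from 5 to 11 increases in the unfolded protein response. It gave from 10 to 19 decreases among Nduf genes and from 7 to 11 increases among Sec genes. The lowest of these counts came without siKlf4/TGFβ replicate 2 for TGFβ ligands, receptors and Smads, the unfolded protein response and Sec genes, without siKlf4/TGFβ replicate 1 for the decreases among junction, apoptosis, fatty acid oxidation and interferon genes, and without either of them for the increases among apoptosis genes and for Nduf genes. The cause was not tested. Signal over background is not given for each probe set, so dim genes were judged by mean level only.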

Other observations

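Gene families outside the lists above were counted by their symbols, with the families chosen after values had been seen, so the counts are descriptions. All 6 condensin genes measured were called lower, led by Ncapg2 with 6.15 and 6.03 in the siKlf4/TGFβ arrays, against 9.24 and 9.06 in the siControl arrays. Of 21 centromere genes with the stem Cenp, 16 were lower and none higher, with a median log2 difference of −1.27. All 11 genes of the DNA polymerases α, δ, ε and θ were lower, and 7 of 10 Fanconi anaemia genes, which repair DNA crosslinks, with Fanci at −2.22. Kinesin genes fell in 15 of 37 and rose in 3. Kif3c, a kinesin of intracellular transport, was among those that rose, at 1.34. Mitochondrial ribosome genes fell in 46 of 77 and rose in none, with a median of −0.38. Genes with the stem Nduf, most of them subunits or assembly factors of respiratory complex I, fell in 20 of 43. That last count was 10 or 11 when a siKlf4/TGFβ array or siControl replicate 1 was left out. Genes with the stems Rpl and Rps of the cytosolic ribosome fell in 4 of 55 and rose in none. Their median was −0.03, and the share that fell was below the 15.3% over all genes. The match by symbol took in related genes such as Rpl3l and Rpl39l, and Rps4l, a transcribed pseudogene that was among those that fell.

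Other families changed upward, split or stayed near the shares over all genes, 14.7% higher and 15.3% lower. Increases among Eph receptor, connexin and protocadherin genes were near the first share, and Hox genes were below both. Many Hox genes, such as Hoxa2 at 3.30 in siKlf4/TGFβ and 3.27 in siControl, lay below the array medians in both groups. Several Eph receptor and connexin genes, such as Epha3 and Gjb2, did so too. A missing call in such genes says little about their expression. Of 8 ephrin genes, which signal between touching cells, 5 were higher and 1 lower, with Efnb1 at 1.498, while of their 13 Eph receptors 2 were higher and 2 lower. Plexin genes, the semaphorin receptors, were higher in 4 of 9 and lower in 2, Plxnb1 and Plxnb2 at −0.53 and −0.39, with Plxnd1 at 9.80 and 9.90 in the siKlf4/TGFβ arrays, against 7.34 and 7.30 in the siControl arrays. Genes with the stem Sec, most of which build transport vesicles or the translocon, were higher in 11 of 28, or 7 without siKlf4/TGFβ replicate 2, and lower in 3, with the coat gene Sec24d at 1.74. Of 12 connexin genes, which build gap junctions, 2 were higher, 1 was lower and 9 were not called. The second that rose was Gjc1, at 0.63. Gja1 (connexin 43) had 6.34 and 6.27 in the siKlf4/TGFβ arrays, against 4.53 and 4.58 in the siControl arrays, and Gjb1 (connexin 32) had 4.68 and 4.66 in the siKlf4/TGFβ arrays, against 6.17 and 6.61 in the siControl arrays. Of 37 Hox genes, 1 was lower and none higher, Hoxb13 at −0.35. Of 24 Serpinb genes, 6 were higher and 1 lower, and of 34 protocadherin genes 6 were higher and none lower, with closely related copies in both families. Single genes outside all lists, picked for their size after values had been seen, included the prostaglandin synthase Ptgs2 with 12.09 and 12.03 in the siKlf4/TGFβ arrays, against 10.34 and 10.06 in the siControl arrays, the skeletal actin gene Acta1 at 2.75, the transcription factor Runx1 at 2.35, the intestinal homeobox gene Cdx2 with 7.05 and 6.85 in the siKlf4/TGFβ arrays, against 8.75 and 8.84 in the siControl arrays, and the water channel Aqp1 at −2.83.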
